A study of Mus musculus with 6 samples.

Results

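The genes described here are 10 interferon-inducible GTPases of the mouse, taken by name from the 49585 genes of the count tables: the guanylate-binding proteins (GBP) Gbp2, Gbp3, Gbp4, Gbp5, Gbp6 and Gbp7, and the immunity-related GTPases (IRG) Irgm1, Irgm2, Igtp and Iigp1. Their transcripts were counted in microglia, the resident macrophages of the brain, sorted by flow cytometry from male mice aged 3 months. The cells were isolated without enzymes; the labels do not say whether a library came from 1 brain or several, so p-values measure the spread between these libraries. Of the 6 libraries, 3 were wild type (WT) and 3 carried the label IRF8KO, a loss of Irf8, which encodes an interferon-regulatory transcription factor of myeloid cells. The labels give no treatment or infection, and they state neither how the allele was made nor whether other cells of the mice also lacked it. All 10 genes had counts in at least 1 library, 7 of them passed the filter on low counts and were tested, and Gbp4, Gbp6 and Iigp1 were too low to be tested.

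GBP and IRG proteins are GTPases that interferon gamma induces strongly in macrophages and many other cells. Interferon gamma signals through its receptor and JAK kinases to gamma-activated sites in promoters, and it induces IRF1, which binds interferon-response elements. IRF8 binds the same interferon-response elements with IRF1 and other partners, and it binds ETS-IRF composite elements together with PU.1. The induced GTPases collect on the vacuoles of intracellular bacteria and parasites and help to break them open. Irgm1, Irgm2 and Igtp (also called Irgm3) belong to a regulatory branch that sits on the cell's own membranes and keeps the effector IRG proteins, such as Iigp1, inactive there.

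The libraries held between 3658917 and 11098363 counts in genes. Levels are given as CPM, counts relative to the library total after TMM scaling. Values given as edgeR adjusted p come from edgeR's quasi-likelihood test with Benjamini-Hochberg adjustment over all tested genes, and a gene was called where that p was under 0.05. The targeted gene Irf8 was at 793, 849 and 1400 CPM in WT replicates 1, 2 and 3 and at 741, 648 and 848 CPM in IRF8KO replicates 1, 2 and 3. Its log2 fold change of −0.44 was not called (edgeR adjusted p = 0.368; −0.90 and 0.00758 with library size alone), so the counts of the whole gene did not check the labels, and IRF8KO here means the libraries labelled so. A pair of libraries stood apart within their groups. WT replicate 3 was lower than the other WT libraries in genes of low GC content (median log2 difference −0.84 below the median GC of 50.6%, and 0.52 at or above it). Exons of the 10 GTPase genes had 39.4% to 49.8% GC, all below that median, and 6 of the 7 tested members were lower in WT replicate 3, with a median log2 difference of −1.31. IRF8KO replicate 2 held 3601 counts of 8 neutrophil markers, or 322 CPM, against at most 2.40 CPM in any other library, and 6 of the 7 tested members were higher in it than in the mean of the other IRF8KO libraries (median log2 difference 1.28). For the tested members and family genes, values without those libraries stand beside the results that they move most.

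None of the 7 tested members was called, either higher or lower in IRF8KO, in the edgeR fit over 11041 genes. Over all tested genes the share called was 19.1%, with 9.64% higher and 9.46% lower, an even split that became 25.4% higher among the calls when library size alone set the scale (50.5% higher with TMM). A single member, Irgm2, had an unadjusted p under 0.05, where 33.7% of all tested genes did. DESeq2 and limma-voom also called 0 members, each with 1 member at an unadjusted p under 0.05. The WT and IRF8KO values overlapped for all 7 tested members, while 37.9% of the tested genes had no overlap between groups, 20% with all IRF8KO values above and 17.9% with all below. The members' median log2 fold change was −0.11, with 3 of 7 positive, and that of all tested genes was −0.11. When WT replicate 3 and IRF8KO replicate 2 were left out together, an alternative chosen after seeing the data, Gbp3, Gbp7 and Irgm2 were called lower, in a fit that called 5228 of its 11499 tested genes, close to the members' share.

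**Figure D1:**
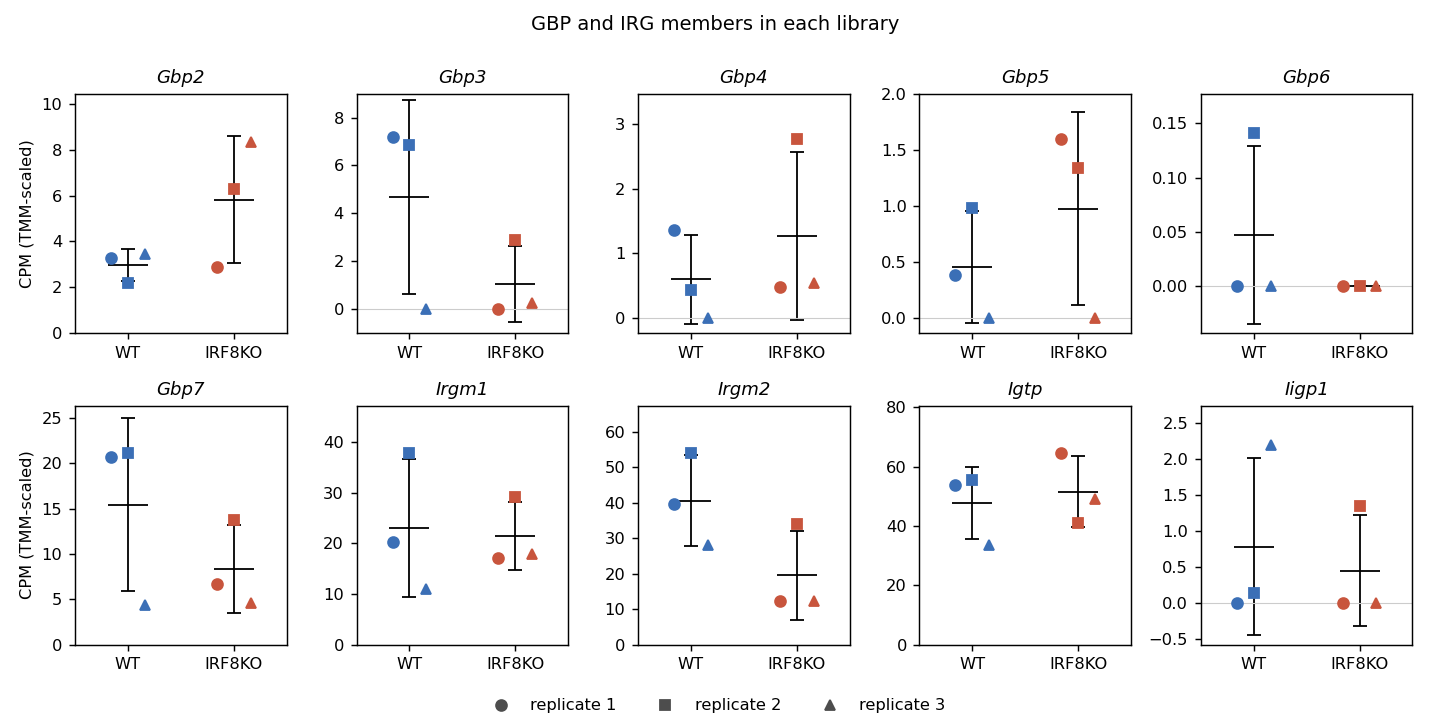
Level of each of the 10 members in CPM (vertical axes, TMM-scaled, a separate scale per gene) in the WT and IRF8KO libraries. Points are libraries, marked by replicate number, and the bar and whiskers are the mean and SD of 3 libraries. Values of the groups overlap for every tested member; WT replicate 3 has the lowest WT value of Gbp3, Gbp7, Irgm1, Irgm2 and Igtp.

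The 3 regulatory IRG genes supplied most of the signal. Igtp, Irgm1 and Irgm2 together held between 77.5% and 88.9% of the members' counts in each library. Summed over the 10 members, the level was 147, 179 and 82.9 CPM in WT replicates 1, 2 and 3 and 106, 133 and 93.0 CPM in IRF8KO replicates 1, 2 and 3. The groups overlapped, with the lowest total in WT replicate 3 and the highest in WT replicate 2. The 6 GBP genes together had 24.2 ± 14.2 CPM in WT and 17.5 ± 8.36 CPM in IRF8KO, and the 4 IRG genes 112 ± 36.2 and 92.9 ± 13.1 CPM (SD, n = 3).

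Per kb of exon, which allows genes to be compared, Igtp had the highest level in either group: 23.6 ± 6.01 CPM per kb in WT and 25.5 ± 5.90 in IRF8KO (SD, n = 3). Irgm2 followed with 11 ± 3.50 in WT and 5.29 ± 3.42 in IRF8KO, below Igtp in every library. Irgm1 came next, at 3.96 ± 2.34 and 3.68 ± 1.15 CPM per kb; it lay below Irgm2 without overlap in WT but overlapped it in IRF8KO. Gbp7, Gbp3 and Gbp2 followed in WT at 2.75, 1.43 and 1.18 CPM per kb, and in IRF8KO the order was Gbp2, Gbp7 and Gbp3 at 2.32, 1.49 and 0.315. Each of these overlapped its neighbour in the order. Iigp1, Gbp4, Gbp5 and Gbp6 stayed at or below 0.169 CPM per kb on average in both groups. Exonic length here is that of all annotated isoforms together, so genes with rarely used long isoforms are placed too low.

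Igtp (ENSMUSG00000078853.8, chromosome 11, 58199556 to 58207591, plus strand) and Irgm2 (ENSMUSG00000069874.7, chromosome 11, 58199618 to 58222782, plus strand) lie beside each other, and annotated isoforms of Irgm2 begin in the first part of Igtp. Of Igtp's exonic length, 8.01% is shared with Irgm2, and reads there were counted for neither gene. Words of 50 bases that also occur in another gene make up 11.8% of those of Igtp and 7.83% of those of Irgm2, mainly each other's. The windows around their RefSeq start sites (GRCm38.p6, 250 bases before to 50 after the start) are shown because they carry the same order of elements, which the windows of Tgtp1, Tgtp2 and Gm12185 also carry. The letters searched were TTC and GAA with 3 bases of any kind between them for the gamma-activated site, GGAA and GAAA with 2 bases between them for the ETS-IRF composite element, and GAAA and GAAA with 2 bases between them for the interferon-response element. In each window the ETS-IRF composite element lies in the middle and overlaps the gamma-activated site before it and the interferon-response element after it, which gives a single run in capitals, as all matches are in the windows printed here. The match to the gamma-activated site begins 45 bases before the start of Igtp and 75 bases before that of Irgm2.
Igtp, chr11:58199306-58199605, plus strand: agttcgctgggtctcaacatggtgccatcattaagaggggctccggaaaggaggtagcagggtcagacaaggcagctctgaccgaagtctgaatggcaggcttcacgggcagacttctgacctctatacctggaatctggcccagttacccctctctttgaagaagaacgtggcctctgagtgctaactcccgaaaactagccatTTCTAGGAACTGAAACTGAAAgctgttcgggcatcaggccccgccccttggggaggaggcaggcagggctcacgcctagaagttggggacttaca
Irgm2, chr11:58214727-58215026, plus strand: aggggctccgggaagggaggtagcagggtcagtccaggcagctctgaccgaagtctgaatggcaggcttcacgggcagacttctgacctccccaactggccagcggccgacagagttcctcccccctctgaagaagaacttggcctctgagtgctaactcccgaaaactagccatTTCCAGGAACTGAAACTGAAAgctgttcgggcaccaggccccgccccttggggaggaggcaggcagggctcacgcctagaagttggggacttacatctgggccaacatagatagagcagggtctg
The longest stretch without a difference between these windows was 61 bases.

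Igtp had 54.0, 55.4 and 33.7 CPM in WT replicates 1, 2 and 3 and 64.5, 41.0 and 49.2 CPM in IRF8KO replicates 1, 2 and 3. WT replicate 3 was the lowest of the 6 and IRF8KO replicate 1 the highest, so the groups overlapped, while WT replicates 1 and 2 lay above IRF8KO replicates 2 and 3. The log2 fold change was 0.11 with an SE of 0.31 (edgeR adjusted p = 0.833), and its 95% interval ran from −0.56 to 0.78. A change of 2-fold in either direction lies outside that interval, which belongs to the TMM scaling. With library size alone the log2 fold change was −0.48 (edgeR adjusted p = 0.309), and no interval is given for that scaling. Igtp was not called in any of 18 alternatives, and its sign turned in 4 of them.

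Irgm2 was at 39.6, 54.0 and 28.2 CPM in WT replicates 1, 2 and 3 and at 12.2, 34.1 and 12.3 CPM in IRF8KO replicates 1, 2 and 3. IRF8KO replicates 1 and 3 lay below every WT library, and IRF8KO replicate 2 lay within the WT range. The log2 fold change was −1.05 (SE 0.44, 95% interval −2.0 to −0.10), with an unadjusted edgeR p of 0.0331 and a BH-adjusted one of 0.113. Without IRF8KO replicate 2, the library with the neutrophil transcripts, the log2 fold change was −1.72 and the edgeR adjusted p 0.0146. Leaving out any other single library left Irgm2 uncalled, with log2 fold changes from −1.18 to −0.79. With all 6 libraries it was called where no low-count filter was used (−1.04, edgeR adjusted p = 0.0478) and with a replicate block (−1.17, edgeR adjusted p = 0.022). With an offset for GC and length the log2 fold change was −0.65.

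Irgm1 (ENSMUSG00000046879.7, chromosome 11, 48861968 to 48871683, minus strand) encodes the regulator best known for resistance to mycobacteria and for its link to autophagy. Its start window is shown because its 2 interferon-response elements overlap, the first beginning 30 bases before the start, with no match to either other motif.
Irgm1, chr11:48871371-48871670, minus strand: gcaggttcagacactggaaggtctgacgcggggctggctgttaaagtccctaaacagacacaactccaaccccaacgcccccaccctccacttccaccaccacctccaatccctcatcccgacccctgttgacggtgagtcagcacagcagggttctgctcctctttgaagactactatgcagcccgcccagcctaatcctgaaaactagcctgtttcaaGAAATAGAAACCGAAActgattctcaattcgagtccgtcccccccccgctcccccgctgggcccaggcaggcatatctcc
The gene had 20.2, 37.8 and 11 CPM in WT replicates 1, 2 and 3 and 17.1, 29.1 and 17.9 CPM in IRF8KO replicates 1, 2 and 3. The IRF8KO values all fell between the lowest and the highest WT value. The log2 fold change was −0.11 (SE 0.44, 95% interval −1.08 to 0.86; edgeR adjusted p = 0.889), and it changed sign in 6 of 18 alternatives without being called in any.

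Gbp7 (ENSMUSG00000040253.15, chromosome 3, 142530342 to 142550149, plus strand) was the most abundant GBP in WT. It lies in the chromosome 3 cluster with Gbp5, Gbp3, Gbp2b and Gbp2. Its start window is shown because it holds a pair of gamma-activated sites and an interferon-response element that do not overlap, with the latter 53 bases before the start and on the minus strand of the window.
Gbp7, chr3:142530086-142530385, plus strand: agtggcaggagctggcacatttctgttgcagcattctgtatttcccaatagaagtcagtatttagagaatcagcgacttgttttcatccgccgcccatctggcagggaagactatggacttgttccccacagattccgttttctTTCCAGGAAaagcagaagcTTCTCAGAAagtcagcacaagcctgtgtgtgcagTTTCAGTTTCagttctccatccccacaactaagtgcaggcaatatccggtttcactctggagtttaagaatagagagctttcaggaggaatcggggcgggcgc
Gbp7 had 20.8, 21.1 and 4.40 CPM in WT replicates 1, 2 and 3 and 6.73, 13.8 and 4.54 CPM in IRF8KO replicates 1, 2 and 3. WT replicates 1 and 2 were above every IRF8KO library, and WT replicate 3 was below all of them. The log2 fold change was −0.88 (SE 0.61, 95% interval −2.20 to 0.44; edgeR adjusted p = 0.337). Without WT replicate 3 the estimate was −1.25 (edgeR adjusted p = 0.0745), without IRF8KO replicate 2 it was −1.45 (edgeR adjusted p = 0.158), and with the GC and length offset 0.04. A pseudogene, Gm43802, lies within Gbp7 over 11.3% of its exonic length and had 0 counts in every library.

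Gbp3 (ENSMUSG00000028268.14, chromosome 3, 142560026 to 142573209, plus strand) had 37, 97 and 0 counts in WT replicates 1, 2 and 3 and 0, 32 and 2 counts in IRF8KO replicates 1, 2 and 3. In CPM this was 7.18, 6.85 and 0 in WT and 0, 2.86 and 0.216 in IRF8KO. The split ran within the groups as well as between them: the 3 libraries with more than 2 counts were WT replicates 1 and 2 and IRF8KO replicate 2. Its log2 fold change was −2.10 with an SE of 1.37 (edgeR adjusted p = 0.308). Without IRF8KO replicate 2 the estimate was −5.08, still uncalled (edgeR adjusted p = 0.0739), and without WT replicate 3 it was −2.56 (edgeR adjusted p = 0.0975). Across the 6 libraries, log2 CPM of Gbp3 and Gbp7, which lie next to each other, had a Pearson correlation of 0.955, the closest of any pair of tested members (a description of libraries that share their GC shift and depth).

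Gbp2 (ENSMUSG00000028270.12, chromosome 3, 142620602 to 142638008, plus strand), a GBP that is anchored to membranes by a lipid at its C terminus, ran the other way. It had 3.30, 2.19 and 3.44 CPM in WT replicates 1, 2 and 3 and 2.88, 6.27 and 8.33 CPM in IRF8KO replicates 1, 2 and 3. IRF8KO replicates 2 and 3 lay above all WT libraries, and IRF8KO replicate 1 lay within the WT range. The log2 fold change of 0.98 (SE 0.60, 95% interval −0.32 to 2.29) was not called (edgeR adjusted p = 0.272), nor was it in any of 18 alternatives, where it ranged from 0.54 to 1.31. Its log2 CPM had a negative Pearson correlation with that of each of the other 6 tested members over the 6 libraries, between −0.454 and −0.139.

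The remaining GBP members were near the counting floor. Gbp5 (ENSMUSG00000105504.4, chromosome 3, 142493978 to 142522344, plus strand), known for promoting inflammasome assembly, had 2, 14 and 0 counts in WT replicates 1, 2 and 3 and 10, 15 and 0 counts in IRF8KO replicates 1, 2 and 3. Its 95% interval for the log2 fold change of 0.95 was wide, from −1.92 to 3.81 (edgeR adjusted p = 0.652). The Gbp5 estimate rested on single libraries: it ranged from 0.45 with WT replicate 3 left out to 2.36 with WT replicate 2 left out, and it was 0.10 when WT replicate 3 and IRF8KO replicate 2 were both left out, uncalled in each. Gbp4 (chromosome 5, 105115767 to 105139586, minus strand) had 7, 6 and 0 counts in WT and 3, 31 and 5 in IRF8KO. IRF8KO replicate 2 held more Gbp4 counts than the other 5 libraries together. Its exons overlap those of Gbp8 and Gbp9 over 0.814% of their length, and 7.78% of its 50-base words occur in another gene. Gbp6 (chromosome 5, 105270702 to 105293698, minus strand) had 2 counts in WT replicate 2 and 0 in the other 5 libraries. Gbp6 cannot be read as absent: 70.7% of its 50-base words also occur in another gene, mostly Gm43302 and Gbp10, and Gm43302 and Gbp10 had 0 counts in every library, so reads of any of them may have been dropped as ambiguous or mapped to several places.

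Iigp1, on chromosome 18, is an effector IRG that loads onto the vacuole of Toxoplasma. It had 0, 2 and 16 counts in WT replicates 1, 2 and 3 and 0, 15 and 0 counts in IRF8KO replicates 1, 2 and 3. Nearly all of its counts came from 1 library of each group, WT replicate 3 and IRF8KO replicate 2. A library with 0 counts allows up to 3 counts, between 0.212 and 0.582 CPM over the 6 libraries, so no fold is given. Such floors cover counting error only, since the libraries carry no molecular identifiers.

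**Figure D2:**
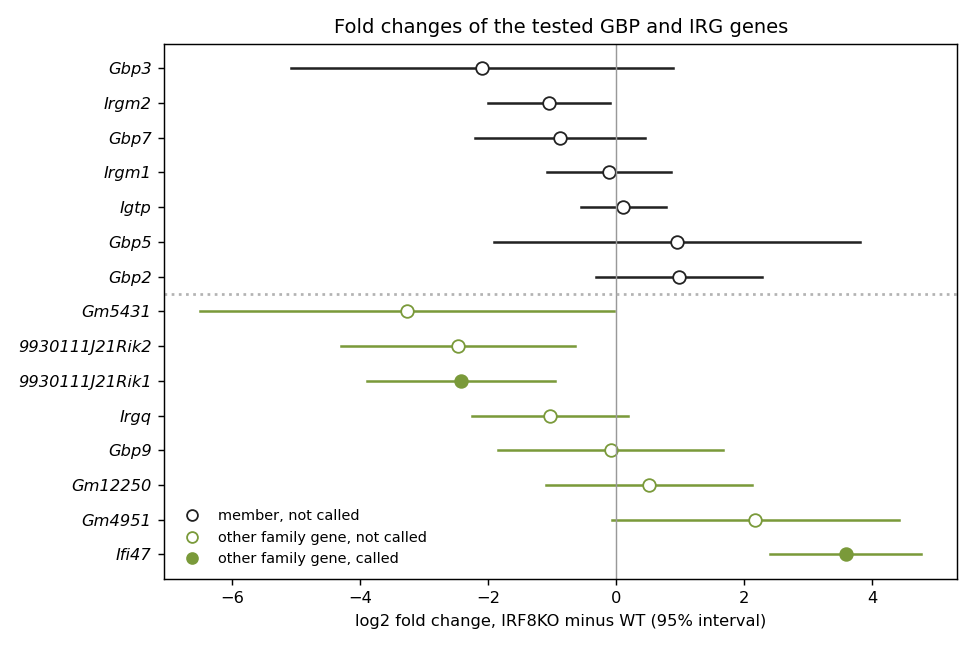
Log2 fold change, IRF8KO minus WT, with its 95% interval (horizontal axis) for the 7 tested members, above the dotted line, and the 8 tested genes of the list of other GBP and IRG genes, below it. Filled points were called by edgeR at an adjusted p under 0.05. The intervals of 6 of the 7 members span 0, and Ifi47 stands to the right of all other genes shown.

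The rest of the GBP and IRG genes were taken from a list of 18 fixed by name, of which 8 were tested. Ifi47 rose, 9930111J21Rik1 fell and the other 6 were not called (edgeR, beside 19.1% called over all tested genes). Ifi47 (ENSMUSG00000078920.3, chromosome 11, 49076587 to 49096974, plus strand), also called Irgd or IRG-47, had 1.55, 0.918 and 3.03 CPM in WT replicates 1, 2 and 3 and 25.8, 23.9 and 15.6 CPM in IRF8KO replicates 1, 2 and 3. Every IRF8KO library was above every WT library. Its log2 fold change was 3.59 (SE 0.54, 95% interval 2.41 to 4.77; edgeR adjusted p = 8.9e-04). It was called in all 17 alternatives in which it was tested, with log2 fold changes from 3.18 to 4.25. Exons of Ifi47 overlap those of the odorant receptor gene Olfr56 and the pseudogene Gm12188 over 8.78% of its length, and these had at most 1 count in any library. Reads in the shared part were counted for no gene, so those counts do not measure what Ifi47 lost there.

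The RefSeq window of Ifi47 is shown for comparison with the members' windows, because it holds none of the 3 motifs.
Ifi47, chr11:49076337-49076636, plus strand: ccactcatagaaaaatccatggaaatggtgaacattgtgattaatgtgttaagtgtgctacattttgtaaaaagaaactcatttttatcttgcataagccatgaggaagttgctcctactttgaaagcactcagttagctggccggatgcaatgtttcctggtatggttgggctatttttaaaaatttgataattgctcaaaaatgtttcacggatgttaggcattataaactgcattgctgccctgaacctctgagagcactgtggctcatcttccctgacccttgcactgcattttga
That says only that these letters are not in this window. Of the 10 members, 7 had a window in the RefSeq table, and all 7 held an interferon-response element in at least 1 window, where 3.44% of all 32851 windows of the same length did. An ETS-IRF composite element was in the windows of 3 members, Gbp5, Irgm2 and Igtp, against 2.72% of all windows. A gamma-activated site was in those of 4 members, the same 3 and Gbp7, against 8.30% of all windows. Motifs were searched on both strands with overlaps kept, and a match is a run of letters, not a bound site. Among the 10 other family genes with a window, 6 held an interferon-response element, 4 an ETS-IRF composite element and 4 a gamma-activated site. Of the family genes named here, 9930111J21Rik1, called lower, held an interferon-response element 26 bases after its start, and Irgq, not called, held no match. The window of the copy 9930111J21Rik2 ended inside the same run of letters, so a match there depends on where the window ends. Whether calls go with these letters was not tested.

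**Figure D3:**
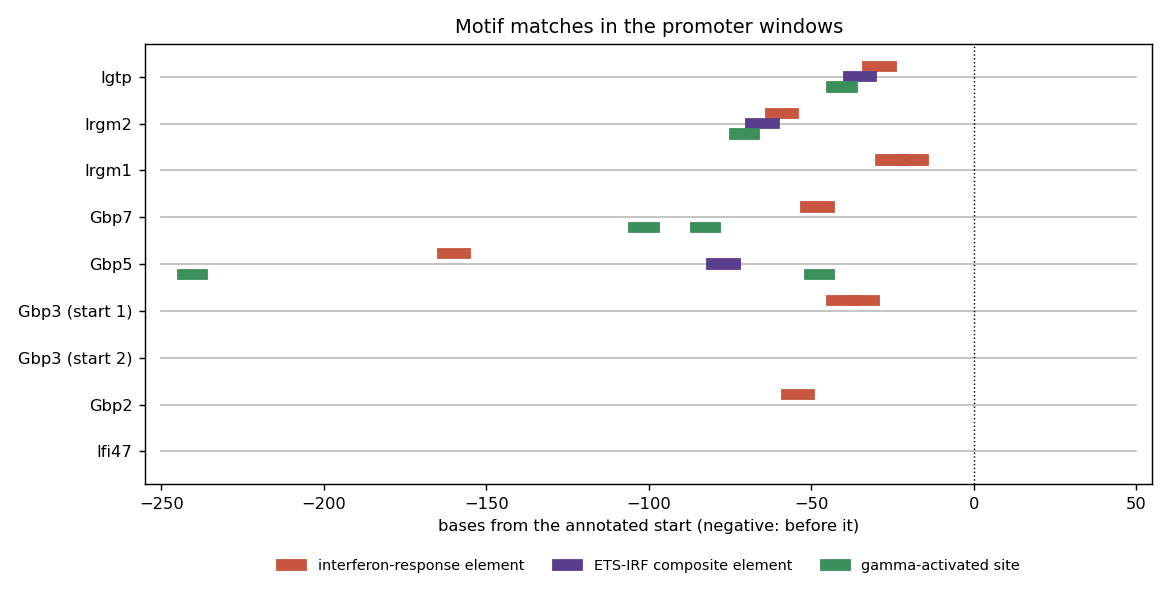
Matches to the 3 motifs (coloured blocks) in RefSeq promoter windows, drawn by distance in bases from the annotated start, for the 7 members with a window and for Ifi47. All 7 members have an interferon-response element in at least 1 window, within 165 bases before the start; the second start of Gbp3 and the window of Ifi47 hold no match.

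No other tested family gene was called higher with the main settings. Gm12250, which encodes Irgb10 but is annotated as a pseudogene in this release, had 7.57, 9.75 and 0.825 CPM in WT replicates 1, 2 and 3 and 3.68, 9.58 and 12.7 CPM in IRF8KO replicates 1, 2 and 3, with a log2 fold change of 0.51 that was not called (0.051 without WT replicate 3). Gbp9, in the chromosome 5 cluster, had 5.72 ± 3.54 CPM in WT and 5.35 ± 5.99 in IRF8KO (SD, n = 3), with 136 of its 169 IRF8KO counts in replicate 2. The Gbp9 log2 fold change of −0.09 became −1.53 without that library, uncalled, and −1.81 without WT replicate 3 as well, where it was called lower (edgeR adjusted p = 0.0416). Irgq, a divergent relative, had 19.8, 19.8 and 19.7 CPM in WT and 10.4, 2.33 and 16.3 CPM in IRF8KO, without overlap, and was not called (log2 fold change −1.03, edgeR adjusted p = 0.219); without IRF8KO replicate 2 the estimate was −0.55. Gm4951, on chromosome 18 near Iigp1, had 4, 21 and 0 counts in WT replicates 1, 2 and 3 and 9, 70 and 28 in IRF8KO replicates 1, 2 and 3. IRF8KO replicate 1, at 1.44 CPM, lay below WT replicate 2, at 1.48 CPM. The log2 fold change of Gm4951 was 2.173 with an SE of 1.03, not called (edgeR adjusted p = 0.161). Fits without 1 library gave 1.52 to 3.28, uncalled in each, and it was also uncalled without WT replicate 3 and IRF8KO replicate 2. Its estimate was positive in all 15 alternatives in which it was tested, from 1.03 to 3.28, and it was called with the GC and length offset (2.94, edgeR adjusted p = 0.0322).

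On chromosome 11 the tandem copies 9930111J21Rik1, 9930111J21Rik2 and Gm5431 had lower estimates. The first fell from 9.90, 6.50 and 4.81 CPM in WT replicates 1, 2 and 3 to 2.08, 1.34 and 0.541 CPM in IRF8KO replicates 1, 2 and 3, a log2 fold change of −2.43 (SE 0.67, edgeR adjusted p = 0.0263). That call was lost without WT replicate 1, WT replicate 2, IRF8KO replicate 2 or IRF8KO replicate 3, at edgeR adjusted p of 0.133, 0.071, 0.0585 and 0.113, and with the GC and length offset, at 0.0506. The second copy stood at −2.47 (edgeR adjusted p = 0.058; 0.0172 without WT replicate 3 and 0.029 without IRF8KO replicate 1), and it was called lower in 9 of 17 alternatives, DESeq2 (adjusted p = 0.0177) and limma-voom among them. Gm5431, with 0 counts in WT replicate 3 and in IRF8KO replicates 1 and 3, stood at −3.27 (edgeR adjusted p = 0.145). It was called lower without WT replicate 3 (−3.74, edgeR adjusted p = 0.0316) and without IRF8KO replicate 2 (−8.14, edgeR adjusted p = 0.0471), where no IRF8KO count remained and the fitted value is no bound. Of the 50-base words of 9930111J21Rik1, 83.2% occur in another gene, mainly its copy, so the split between them is uncertain. Tgtp1 and Tgtp2, the near-identical genes of the effector Irgb6 (81.2% and 86.6% of words shared), had at most 3 and 8 counts in a library. Gbp2b, Gbp10 and Gbp11 had 0 counts in all 6 libraries, and Gbp8, Irgc1, Gm12185, Gm4841 and F830016B08Rik had at most 17 counts in a library.

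Of the other interferon-inducible GTPases, Mx1 and Mx2, dynamin-like antiviral GTPases, had 1.48 ± 1.45 and 2.57 ± 2.34 CPM in WT and 2.12 ± 0.631 and 4.39 ± 2.25 CPM in IRF8KO (SD, n = 3), and neither was called. Both had 0 counts in WT replicate 3. The giant GTPase genes Gvin1 and Gm4070, had at most 1 count in a library, but 99.2% and 97.8% of their 50-base words occur in another gene, so reads may have been dropped and the counts cannot be read as absence.

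Upstream of the family, interferon gamma itself was not detected: no library had a count of Ifng, and the floor of 3 counts was 0.582 CPM at most. The receptor chains were well expressed. Ifngr1, the ligand-binding chain, had 816, 927 and 572 CPM in WT replicates 1, 2 and 3 and 364, 474 and 367 CPM in IRF8KO replicates 1, 2 and 3, without overlap. Its log2 fold change of −0.94 (SE 0.31) just missed the threshold (edgeR adjusted p = 0.0506), and it was called in 8 of 18 alternatives, among them DESeq2 (adjusted p = 0.02) and the fit without WT replicate 3 (−1.07, edgeR adjusted p = 0.0039). Ifngr2, the second chain, had 174 ± 37.4 CPM in WT and 142 ± 15.3 in IRF8KO and was not called.

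Of the 13 genes of interferon-gamma signalling, 12 were tested, 1 was called higher and 2 lower, beside 19.1% called over all tested genes. The list's median log2 fold change was −0.88, against −0.11 over all tested genes. Estimates were positive for 2 of the 12, where 45.8% of all tested genes had a positive one. Jak1, the kinase bound to Ifngr1, fell from 149, 172 and 64.4 CPM in WT replicates 1, 2 and 3 to 33.1, 63.6 and 22.8 CPM in IRF8KO replicates 1, 2 and 3 (log2 fold change −1.68, SE 0.44; edgeR adjusted p = 0.0196). The call was lost without WT replicate 2, IRF8KO replicate 1 or IRF8KO replicate 3, with adjusted p up to 0.123 in edgeR, and with the library size that leaves out Apoe, at 0.0697. Pias1, a SUMO ligase, had a log2 fold change of −1.41 (edgeR adjusted p = 0.0274), also lost in 4 of the 6 fits without 1 library, with the library size that leaves out Apoe and with the GC and length offset, where the estimate was −0.64. Ptpn11, the phosphatase SHP2, rose from 9.37 ± 1.45 to 28.1 ± 6.42 CPM (SD, n = 3; log2 fold change 1.58, edgeR adjusted p = 0.00935) and lost its call without IRF8KO replicate 3, at 0.0696, and with library size alone (1.06, at 0.109). Irf1, a transcription factor that binds interferon-response elements, had 111, 106 and 157 CPM in WT and 231, 150 and 233 CPM in IRF8KO. WT replicate 3 lay above IRF8KO replicate 2, and the log2 fold change of 0.71 was not called (edgeR adjusted p = 0.115); without WT replicate 3 it was 0.94 with an adjusted p of 0.00795.

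Of 21 targets of interferon gamma that are not GTPases, 16 were tested, and Psme1 rose and Slamf8 fell, beside 19.1% called over all tested genes. Psme1, a subunit of the proteasome activator, had 102, 93.5 and 156 CPM in WT and 238, 183 and 260 CPM in IRF8KO (log2 fold change 0.95, edgeR adjusted p = 0.0448), a call that held in 1 of the 6 fits without 1 library and in 9 of 18 alternatives in all. Slamf8, a receptor of the SLAM family on myeloid cells, had 23.7 ± 3.36 CPM in WT and 19, 0 and 0 counts in IRF8KO replicates 1, 2 and 3 (log2 fold change −4.73, edgeR adjusted p = 0.0112). All its IRF8KO counts came from replicate 1, and without that library the fitted value was −10.79, which is no bound. Its BH-adjusted p was 0.0564 in edgeR without IRF8KO replicate 3, and 0.13 in DESeq2. The median log2 fold change of this list was 0.17.

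Type I interferon-stimulated genes, which share the interferon-response element, differed from the GTPase genes in their counts of calls: of 23 tested genes, 12 rose and 0 fell, with a median log2 fold change of 2.22, where 0 of 7 members were called and their median was −0.11; over all tested genes 9.64% were called higher and 9.46% lower. The difference between the lists was not tested. Irf7, the transcription factor that amplifies type I interferon, rose from 17.1, 21.8 and 17.9 CPM in WT to 164, 162 and 134 CPM in IRF8KO. Oas2, which makes the activator of RNase L, rose from 0.20 ± 0.194 to 32.2 ± 14.1 CPM, and Oasl1 from 4.06 ± 1.67 to 41.4 ± 11.3 CPM (SD, n = 3). Their log2 fold changes were 3.01, 7.31 and 3.31, with edgeR adjusted p of 3.6e-05, 4.5e-05 and 3.1e-04, and all were called in every alternative in which they were tested.

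**Figure D4:**
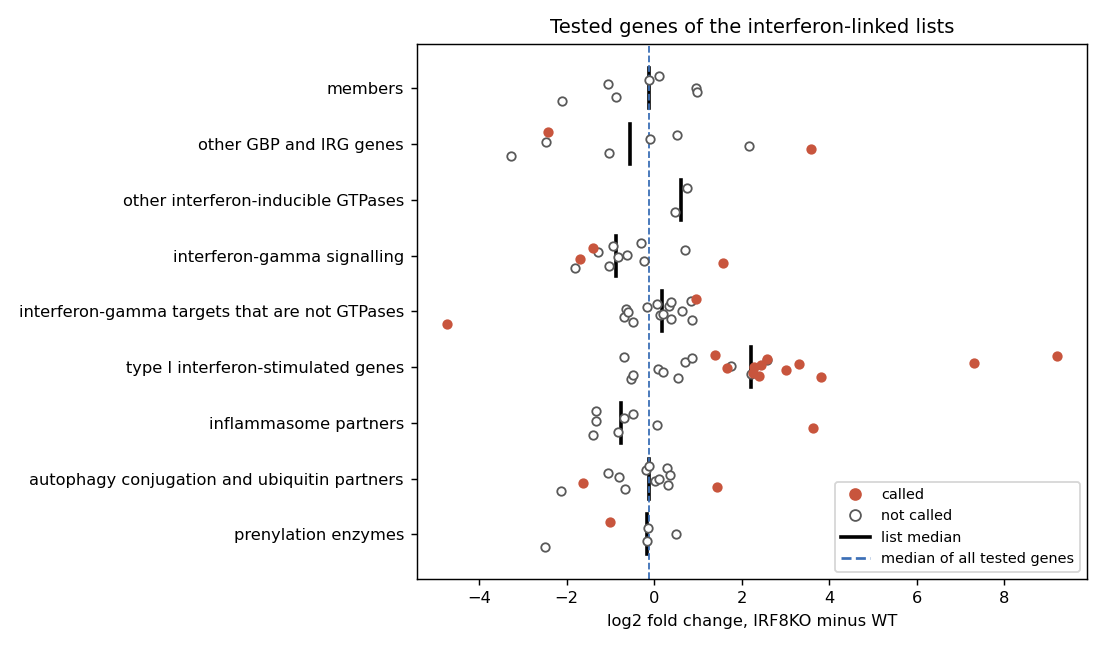
Log2 fold change, IRF8KO minus WT (horizontal axis), of the tested genes of 9 lists; each point is a gene, filled where edgeR called it, with the list's median as a black bar and the median of all tested genes as a dashed line. The 7 members are all open points, with a median of −0.11, and 12 of the 23 type I interferon-stimulated genes are filled and lie to the right.

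Among partners of the GTPases, 1 of 8 inflammasome genes, 2 of 13 autophagy conjugation and ubiquitin genes and 1 of 5 prenylation enzymes were called, shares near the 19.1% called over all tested genes. Of the inflammasome genes Il1b was called: it rose from 2.24 ± 1.31 to 29.0 ± 14.7 CPM (SD, n = 3), while the GBP-linked sensors Aim2 and Casp4 were at 8.64 ± 5.76 and 2.53 ± 0.489 CPM in WT and 3.42 ± 2.01 and 0.973 ± 0.947 in IRF8KO and were not called. Of the autophagy conjugation and ubiquitin partners, which help to bring the GTPases to vacuoles, Gabarap rose from 188 ± 61.7 to 506 ± 93.4 CPM and Atg3 fell from 32.2 ± 16.6 to 10.4 ± 2.99 CPM. Of the enzymes of the prenylation pathway, which lipid-modifies Gbp2 and Gbp5, Icmt fell from 69.8 ± 6.80 to 34.9 ± 5.53 CPM. Their edgeR adjusted p were 9.9e-04 for Il1b, 0.00953 for Gabarap, 0.0287 for Atg3 and 0.0239 for Icmt. Gabarap lost its call in 3, Atg3 in 4 and Icmt in 5 of the 6 fits without 1 library. Atg3 also lost it with limma-voom, with stranded column 4 and with the library size that leaves out Apoe, and its estimate was −0.83 with the GC and length offset.

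Genes with a pattern most like the members were ranked by the Pearson correlation of their log2 CPM over the 6 libraries with the mean standardised log2 CPM of the 7 tested members, among 6166 other genes whose mean reached 10 CPM. The 5 nearest were Kmt2e (0.998), Arl8b (0.994), Ifnar1 (0.986), Kmt2c (0.985) and Rgs1 (0.985). This profile was highest in WT replicate 2, IRF8KO replicate 2 and WT replicate 1 and lowest in WT replicate 3, so it did not separate the genotypes, and none of the 5 was called with the main settings. Without WT replicate 3 and IRF8KO replicate 2, Arl8b, Ifnar1, Kmt2c and Rgs1 were called lower, and with the GC and length offset Arl8b was called higher. Exons of these genes had between 36.7% and 49.5% GC, below the median of all tested genes as those of the members were; the part of GC content in the likeness was not tested.

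Markers of other cells moved with the genotype or with single libraries (over all tested genes, 9.64% were called higher and 9.46% lower), and in bulk RNA fewer cells of a type and less RNA per cell cannot be told apart. Neutrophil markers summed to 322 CPM in IRF8KO replicate 2, to 2.40 and 2.06 in IRF8KO replicates 1 and 3 and to at most 0.141 CPM in WT. The tested neutrophil marker, Cxcr2, was at least 23.9-fold higher in IRF8KO, against a floor of 3 counts over the WT group (at least 14.9-fold without IRF8KO replicate 2). Cxcr2 alone held 10 of the list's 15 counts in IRF8KO replicate 1 and 16 of 19 in IRF8KO replicate 3. In those libraries S100a8 had 5 and 0 counts, S100a9 0 and 1, Camp 0 and 2, and Ngp, Ly6g and Retnlg 0. The fold of Cxcr2 therefore does not stand for the list outside IRF8KO replicate 2. Monocyte markers summed to 58.2 CPM in IRF8KO replicate 2, 4.32 and 1.95 CPM in IRF8KO replicates 1 and 3 and 0.413 to 1.48 CPM in WT, with Fn1 the tested gene and called higher. Of the lymphocytes that make interferon gamma, Cd3e, Cd3g, Cd8a, Gzma, Gzmb and Ncr1 had 0 counts in all libraries, while Ccl5 and Cd4 were called higher. The NK marker Klrb1c had 0, 21 and 4 counts and Nkg7 had 0, 5 and 0 counts in IRF8KO replicates 1, 2 and 3, with 0 counts of either in WT. All 7 tested markers of border-associated macrophages were called higher, with Stab1 the most abundant (690 ± 116 and 1945 ± 309 CPM). The list's sum ran from 608 to 832 CPM in WT and from 3699 to 4899.6 CPM in IRF8KO. Nearly all of the WT sum was Stab1, at 601 to 821 CPM, while Pf4 had 1.79 ± 0.933 CPM in WT and 1877 ± 321 in IRF8KO. Of the markers too low to be tested, Lyve1 was at 0 and Folr2 had at most 2 counts in a library. Clec10a had 0 counts in WT and 0, 2 and 11 in IRF8KO replicates 1, 2 and 3. Of 12 microglia markers, 5 were called lower and Fcrls higher, with sums from 45176 to 77139 CPM in WT and from 37934 to 53460 CPM in IRF8KO, and Sall1 was at 0 in IRF8KO. The part of these cells in the GTPase values was not tested.

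Sums of the other marker lists are given for the same reason, again beside 19.1% called over all tested genes. Endothelial markers ran from 18.8 to 33.2 CPM in WT and from 7.37 to 12 in IRF8KO, with Pecam1 called lower, Abcb1a at 0 in all libraries and Cdh5 at most 2 counts. Flt1, too low to be tested, went the other way, with 0 counts in every WT library and 5, 88 and 59 counts in IRF8KO replicates 1, 2 and 3. Astrocyte markers ran from 174 to 213 CPM in WT and from 117 to 201 in IRF8KO, with 4 of 6 tested genes called higher and Slc1a3 lower (Gfap, Slc1a2, Aldh1l1 and S100b were the 4). Neuron markers ran from 0.353 to 9.08 CPM in WT and from 21.3 to 28.7 in IRF8KO, with 2 of 4 tested genes called higher, Rbfox3 the more abundant. B lymphocyte markers ran from 517 to 857 CPM in WT and from 29.1 to 40.8 in IRF8KO, with Ighm and Cd79b called lower and Ms4a1, Igkc and Pax5 at 0. Oligodendrocyte markers ran from 128 to 424 CPM in WT and from 448 to 628 in IRF8KO. Red blood cell markers summed to 0, 0 and 57.3 CPM in WT replicates 1, 2 and 3 and to 53.6, 96.2 and 436 CPM in IRF8KO replicates 1, 2 and 3. Each of these lists had 5 tested genes, and 0 of them were called.

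**Figure D5:**
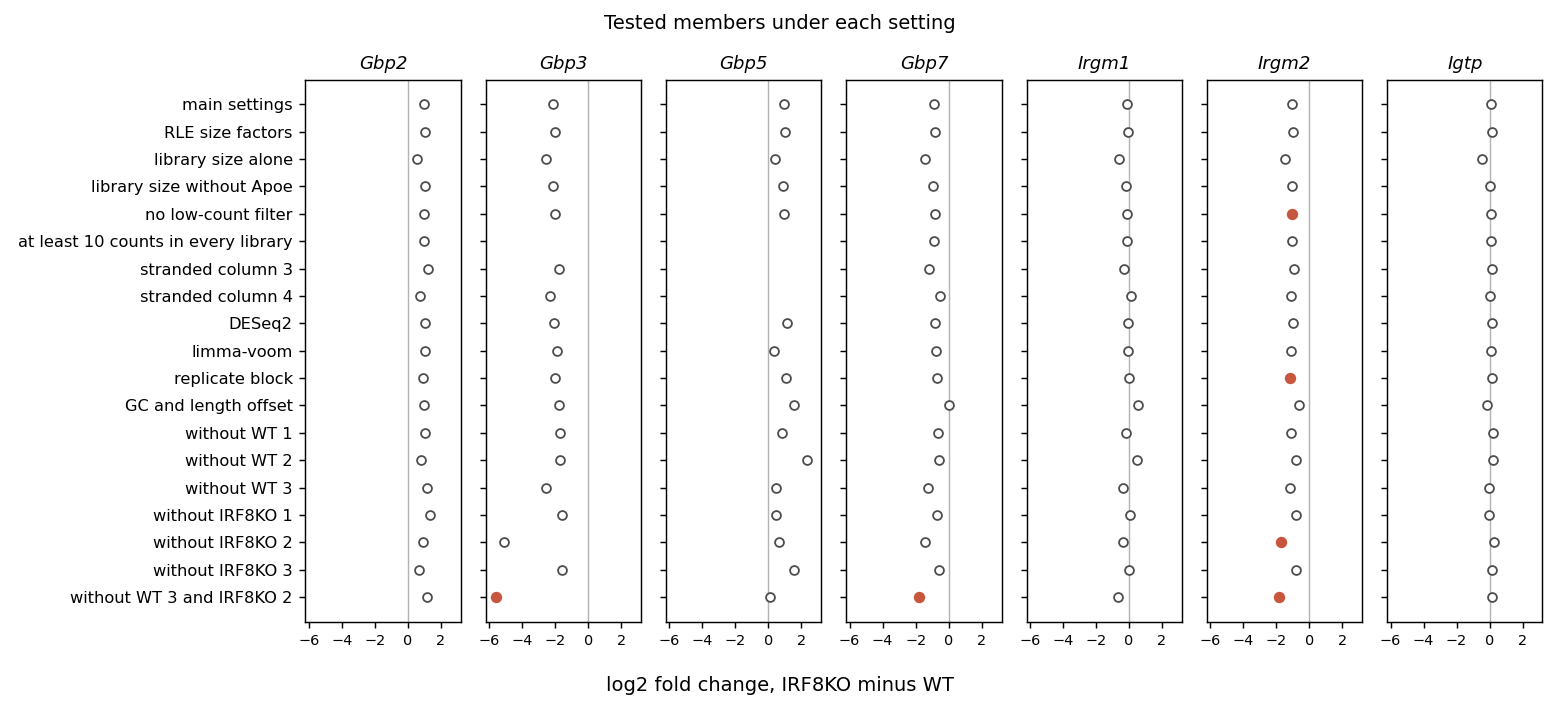
Log2 fold change, IRF8KO minus WT (horizontal axes), of each tested member under the main settings and 18 alternatives (rows); filled points were called at an adjusted p under 0.05, and a missing point means that the gene was not tested there. Igtp, Irgm1, Gbp2 and Gbp5 were called in none, Irgm2 in 4, and Gbp3 and Gbp7 only where WT replicate 3 and IRF8KO replicate 2 were left out together.

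Without WT replicate 3 and IRF8KO replicate 2, which leaves 2 libraries a group, 3 of 7 members were called lower by edgeR, where 5228 of 11499 tested genes were called in that fit. Irgm2 had a log2 fold change of −1.84, Gbp7 of −1.81 and Gbp3 of −5.56, at edgeR adjusted p of 5.1e-04, 0.00332 and 9.0e-04. Igtp, Irgm1, Gbp2 and Gbp5 stayed uncalled in it. With the GC and length offset, which kept all 6 libraries, none of the 7 was called and the estimate of Gbp7 was 0.04. Which of these libraries or settings stands closer to the cells was not tested.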

How the data were processed

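Raw counts per gene were deposited by the authors, 1 file per library, in the layout that STAR writes: 4 summary lines, then a count that ignores strand and a count for each strand. The submitters' processing notes name bcl2fastq, STAR 2.5.2b, Picard 2.17.11, Subread, featureCounts and the mm10 build; annotation release and trimming are not given in the sources used here. Per the labels' protocols, cDNA came from the SMART-Seq v4 kit and libraries from Nextera XT, which keep no strand. The unstranded count entered every main result, without the summary lines. Of 49585 genes, 49326 matched GENCODE M21 (GRCm38), which gave symbols, positions, exonic length and GC content. Reads with several mapped places or on several genes were not counted, so copies and overlapping genes are uncertain; 8.20% to 10.8% of uniquely mapped reads were ambiguous.

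The main test was that of edgeR 4.0.16 under R 4.3.3 (filterByExpr with a minimum count of 10, TMM, quasi-likelihood test, genotype alone in the model, Benjamini-Hochberg over all tested genes, called at an adjusted p under 0.05). Standard errors come from the F statistic. The fit was tested on simulated data. Alternatives were DESeq2 1.42.0, limma-voom (limma 3.58.1), other scalings and filters, the stranded counts, a replicate block, a loess offset for GC and length, and fits without 1 library. The members and gene lists were chosen with earlier results of these data known; members, tested family genes, Irf8, interferon-gamma pathway genes, the 3 called genes of smallest p per other list, the most abundant called marker per cell type and the 5 nearest genes are named by rule, and other genes were named after their values were seen. Marker lists covered microglia, border-associated macrophages, monocytes, neutrophils, T and NK lymphocytes, B lymphocytes, endothelial cells, astrocytes, neurons, oligodendrocytes and red blood cells. No 2 libraries of a group agreed within sampling noise (chi-square per degree of freedom of at least 8.57). Some items of the lists are not reported here.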

Additional observations from a re-analysis of the deposited data

How the results depend on the processing

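The 7 tested members stayed uncalled under most settings, and Ifi47, Irf7, Oas2 and Oasl1 kept their calls wherever they were tested. Members called lower numbered 1 (Irgm2) with no filter on low counts, 1 with the replicate block, 0 to 1 when 1 library was left out, and 3 without WT replicate 3 and IRF8KO replicate 2, an alternative chosen after seeing the data; none was called higher in any. The count over all tested genes was 2109 and ranged from 910 to 4003 without 1 library, and was 5228 without both libraries. Other GBP and IRG genes called numbered 2, and 3 with library size alone, DESeq2, limma-voom, the replicate block or stranded column 3, 4 with no filter, 0 with at least 10 counts in every library, 1 to 4 without 1 library and 5 without both. Library size alone shifted the median log2 fold change of all genes from −0.11 to −0.61. The replicate block gave Irgm2 −1.17 (edgeR adjusted p = 0.022); it called 2353 genes in all. Deviations of same-numbered libraries from their group means correlated at −0.26, 0.328 and 0.114, and not every library correlated best with its own number, so the numbers were not taken to pair them.

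Signs turned for genes that the main settings did not call, and the cause was not tested. With the GC and length offset the log2 fold changes were 0.038 for Gbp7, 0.56 for Irgm1, −0.16 for Igtp, 0.64 for Gbp9, 0.39 for Kmt2e, 0.70 for Arl8b, 0.08 for Ifnar1 and 0.35 for Rgs1. With stranded column 4, Irgm1 was 0.13 and Kmt2e 0.069. With library size alone, Igtp was −0.48 and Gm12250 −0.067, and with the replicate block Irgm1 was 0.018. Without both libraries Irf8 was 0.046. Without 1 library, Irgm1 ranged from −0.39 to 0.46, Igtp from −0.067 to 0.26, Gbp9 from −1.53 to 0.48, Kmt2e from −0.45 to 0.17, Arl8b from −0.39 to 0.083 and Ifnar1 from −0.53 to 0.088; without both libraries Irgm1 was −0.65, Gbp9 −1.81, Kmt2e −0.70, Arl8b −0.57 and Ifnar1 −0.77. Gbp4, Gbp5, Gbp6 and Iigp1 had at most 31 counts in a library, too few for a precise fold change.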
